A study of Mus musculus with 4 samples.

Results

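The genes described here are 10 heat shock chaperones of the cytosol and of the mitochondrial matrix, out of 55401 genes listed in the deposited counts. They were taken by their gene symbol: Hsp90aa1, Hsp90ab1, Hspa8, Hspa1a, Hspa1b, Hsph1 and Dnaja1 for the cytosol, and Hspd1, Hspe1 and Hspa9 for the mitochondria. RNA of B220+ B cells sorted from the spleen of C57BL/6J mice was sequenced in 4 libraries. Both groups carried Mb1-Cre, a Cre recombinase driven from the Cd79a locus and so active in the B lineage. The 2 NSD1B WT libraries came from Mb1-Cre+ mice with intact NSD1 alleles (NSD1+/+), and the 2 NSD1B KO libraries from Mb1-Cre+ mice whose floxed NSD1 alleles (NSD1fl/fl) lose exons in B cells. NSD1 is a methyltransferase for lysine 36 of histone H3. Mice were 7 to 9 weeks old and of both sexes as the Methods describe them, with no sex stated for a library. Whether 2 libraries of the same genotype stem from different mice is not stated in the labels, so p-values cover only the spread between these libraries, which may be technical.

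Chaperones bind unfolded or partly folded proteins, and those of the HSP70, HSP90 and HSP60 families release them in cycles driven by ATP. HSP70 proteins take up short stretches of a client handed over by a J-domain partner, and a nucleotide exchange factor resets them. HSP90 proteins act later on kinases, receptors and other clients, and HSP60 with its lid HSP10 folds proteins inside a closed chamber in the mitochondrial matrix. Many of these genes are induced by heat shock factor 1, which binds repeats of the letters GAA in alternating orientation, the heat shock element.

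The promoters of 4 of these genes are shown, 3 of genes whose counts differed between genotypes as described below (Hsph1, Dnaja1 and Hspe1) and that of Hspa1a, which had no counts, for comparison. Of several starts of a gene, the one with the most matches to the letters searched is shown, which for Dnaja1 is the only 1 of 3 with a match. Each line gives 150 bases before and 30 bases after a RefSeq start site (GRCm38.p6, the mm10 build), read along the gene. Capitals mark the letters GAANNTTC or TTCNNGAA, 2 units of the element in either order, which read the same on both strands and may overlap.
Hsph1 (minus strand, chr5:149636286-149636465): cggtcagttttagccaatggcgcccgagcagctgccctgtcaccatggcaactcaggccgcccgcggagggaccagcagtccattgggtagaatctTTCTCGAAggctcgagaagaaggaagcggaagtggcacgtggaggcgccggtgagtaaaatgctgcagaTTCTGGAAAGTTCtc
Dnaja1 (plus strand, chr4:40722318-40722497): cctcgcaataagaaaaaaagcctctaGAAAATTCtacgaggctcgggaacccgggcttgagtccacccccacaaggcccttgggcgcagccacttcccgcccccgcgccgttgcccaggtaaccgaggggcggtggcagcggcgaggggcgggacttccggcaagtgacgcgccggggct
Hspe1 (plus strand, chr1:55087998-55088177): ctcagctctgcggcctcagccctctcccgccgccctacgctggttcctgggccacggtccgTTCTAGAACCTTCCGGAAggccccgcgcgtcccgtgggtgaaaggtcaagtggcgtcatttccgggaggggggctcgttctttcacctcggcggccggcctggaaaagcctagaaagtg
Hspa1a (minus strand, chr17:34972127-34972306): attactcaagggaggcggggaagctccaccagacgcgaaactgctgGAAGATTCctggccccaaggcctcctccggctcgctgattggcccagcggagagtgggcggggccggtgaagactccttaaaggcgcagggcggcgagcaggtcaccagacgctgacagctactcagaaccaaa

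RefSeq windows from 250 bases before to 50 bases after a start were used for 6 of the 10 members, 10 windows in all. None is shown for Hsp90aa1, Hsp90ab1, Hspa8 and Hspa9. Any window on chr18, which holds Hspa9, was left out of the counts for members but not of the shares over all genes. All 6 members with a window used had the letters of 2 units in at least 1 window, in 7 of the 10 windows. These letters are present in 15.1% of 32851 windows of all genes. A run of 3 alternating units was found for Hsph1, Hspe1 and Hspd1, and in 0.603% of all windows. Hspe1 and Hspd1 are transcribed away from each other from start sites 216 bases apart (for 1 of the Hspd1 starts), and they share 1 run of the element, chr1:55088059-55088076. This run lies at -89 to -72 from the Hspe1 start and at -144 to -127 from the Hspd1 start. In Hsph1 the letters lie at -54 to -47 and at 16 to 28, in Dnaja1 at -124 to -117 and in Hspa1a at -104 to -97. Overlapping windows share these letters, so the windows are not independent, and a match of letters is a description and not a measured binding site.

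**Figure D1:**
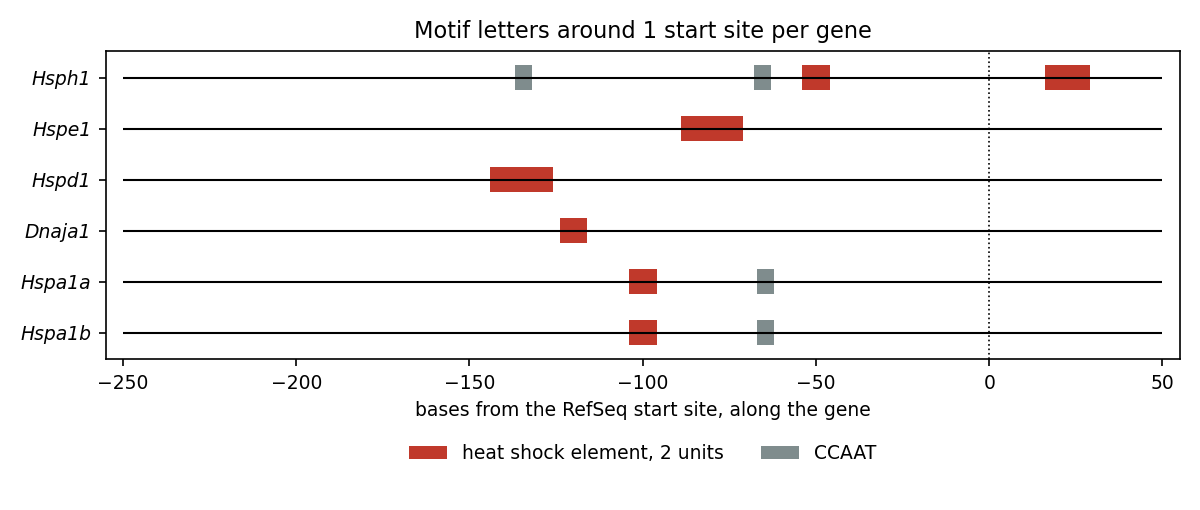
Positions of the letters of 2 heat shock element units (red) and of CCAAT on either strand (grey, in 37.4% of all windows) for 6 genes, in bases from 1 RefSeq start site of each gene. Red marks lie at -144 to -127 for Hspd1 and at -89 to -72 for Hspe1, which are the same bases of the chromosome.

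Counts on genes ran from 6769118 to 7566834 per library, and the 10 members held 10525 and 10810 of them in NSD1B WT and 19817 and 17043 in NSD1B KO. This was 0.151% and 0.152% of the counts in NSD1B WT, against 0.262% and 0.252% in NSD1B KO. Nsd1 had 497 and 480 counts in NSD1B WT and 284 and 280 in NSD1B KO, a log2 fold change of -0.74 ± 0.11 (SE, edgeR quasi-likelihood adjusted p = 8.08e-08). These counts cover the whole gene, of which the floxed exons are a small part, so they check the labels weakly.

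Levels below are in CPM, a gene's counts relative to the total of its library, with totals scaled by edgeR's TMM method to set a common scale across libraries. A gene was called when its adjusted p was below 0.05 and its fold change above 1.2. Of the 10 members, 8 passed the filter on low counts and were tested, and the other 2 had no count in any library. Of the 8, 5 were called higher in NSD1B KO (Hsph1, Dnaja1, Hspe1, Hsp90aa1 and Hspa8), 2 were called lower (Hspd1 and Hspa9) and Hsp90ab1 was not called. Across all 11657 genes tested, 37.1% were called higher and 41.1% lower, so calls in either direction were common. The NSD1B KO libraries both lay above both NSD1B WT libraries for 6 of the 8 members and both below for the other 2, where 41.8% and 46.2% of all tested genes did so. In the cytosol 4 of 5 tested members were higher and 0 lower. In the mitochondria 1 of 3 was higher and 2 were lower. In bulk RNA, fewer cells of a type and less RNA per cell cannot be told apart.

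**Figure D2:**
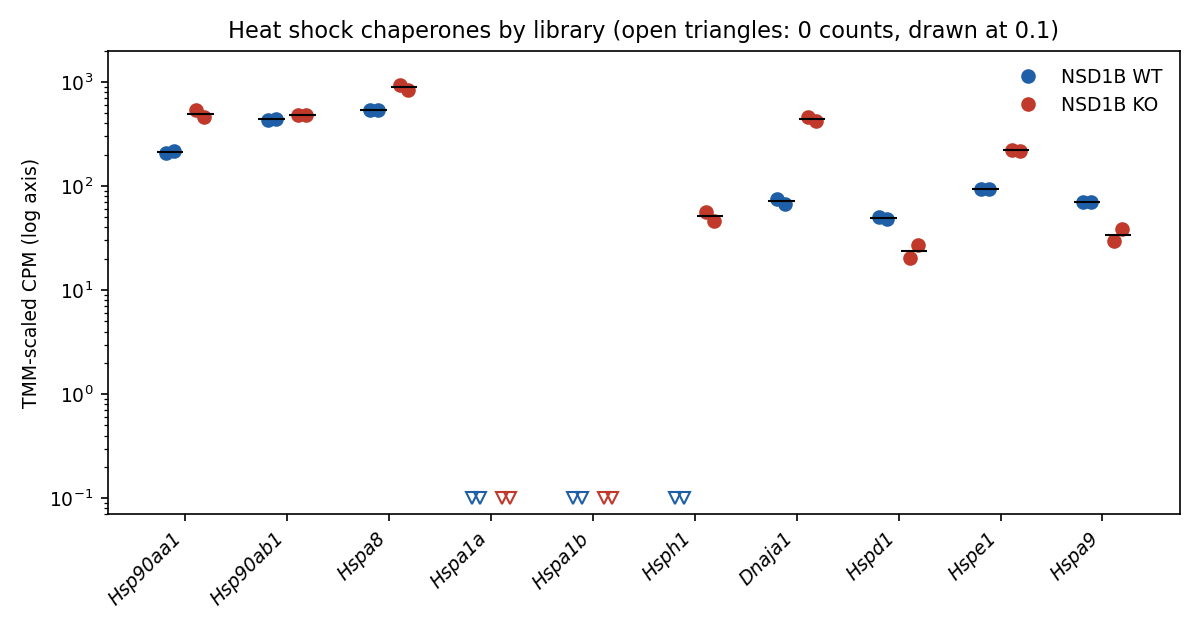
TMM-scaled CPM (log axis) of each of the 10 members in the 2 NSD1B WT libraries (blue) and the 2 NSD1B KO libraries (red), with bars at the means. Hspa1a and Hspa1b have 0 counts in all 4 libraries and Hsph1 in both NSD1B WT libraries, while Hspd1 and Hspa9 are the members that lie lower in NSD1B KO.

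The cytosolic HSP90 proteins are encoded by Hsp90aa1, the stress-inducible form, and Hsp90ab1, the form that most cells express at a steady level. Hsp90aa1 (ENSMUSG00000021270.13, chr12:110690605-110702728, minus strand, mm10) had 1493 and 1590 counts in NSD1B WT and 3838 and 3115 in NSD1B KO. Scaled, this was 213 ± 6.06 and 498 ± 49.7 CPM (mean ± SD, n = 2 libraries). Both NSD1B KO libraries were well above both NSD1B WT libraries, and the log2 fold change was 1.22 ± 0.08 (SE, edgeR adjusted p = 2.47e-18). Of its 150-base stretches, 36.2% are shared with the predicted genes Gm12346, Gm5511 and Gm5844, so part of its reads could be counted there or as not unique.

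Hsp90ab1 (ENSMUSG00000023944.14, chr17:45567775-45573271, minus strand) had 3104 and 3218 counts in NSD1B WT and 3495 and 3258 in NSD1B KO, or 437 ± 4.11 and 485 ± 0.999 CPM (SD, n = 2). The groups did not overlap, but the difference was small. Its log2 fold change was 0.15 with a 95% interval of -0.0049 to 0.30, and it missed the threshold (adjusted p = 0.0706 from edgeR). With the trend in gene length and GC content removed it was called, at 0.33 (adjusted p = 0.000486 from edgeR).

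Per kilobase of exon, Hsp90aa1 stood at 0.367 and 0.377 times the level of Hsp90ab1 in the NSD1B WT libraries and at 0.838 and 0.729 times in the NSD1B KO libraries. The ratio was thus higher in both NSD1B KO libraries than in both NSD1B WT libraries. Since the shared stretches of Hsp90aa1 are not allowed for, these ratios do not settle which of the genes had the higher level in NSD1B KO. No test of the ratios was run.

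Among the HSP70 proteins, Hspa8 (HSC70, the constitutive cytosolic form) had the most counts of all members. Hspa8 (ENSMUSG00000015656.17, chr9:40800984-40810087, plus strand) was counted 3865 and 3953 times in NSD1B WT and 6778 and 5616 times in NSD1B KO. Its level was 541 ± 0.096 and 888 ± 75.8 CPM (SD, n = 2), with no overlap between the groups. The log2 fold change was 0.72 ± 0.08 (SE, edgeR adjusted p = 1.53e-11). Of its 150-base stretches, 22.4% are shared with Gm15459, Gm26825, Gm6210 and Gm8355.

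Hspa1a (ENSMUSG00000091971.3, chr17:34969190-34972156) and Hspa1b (ENSMUSG00000090877.3, chr17:34956436-34959238), both on the minus strand, are the classical heat-induced HSP70 genes. Neither had a count in any of the 4 libraries. A count of 0 allows up to 3 counts, or 0.410 to 0.446 CPM per library, by counting error alone. Of all stretches of the read length, 150 bases, 46% of the Hspa1a transcript and 40.5% of the Hspa1b transcript are also present in another annotated gene, namely in each other, in Hspa1l or in the predicted genes Gm10501 and Gm20481. Their promoter windows match at 296 of 300 bases. Reads that were not unique, 11.2% to 13.2% of the reads counted, were not assigned to a gene, so reads from the shared stretches would not appear here. The remaining stretches are unique among annotated transcripts, and they had no count either. Hspa1l, the third HSP70 gene of this cluster, had 0 counts in each library as well.

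Dnaja1 and Hsph1 act on HSP70: Dnaja1 is a J-domain protein that brings clients and stimulates ATP hydrolysis, and Hsph1 (HSP110) is a nucleotide exchange factor that also holds unfolded proteins. Dnaja1 (ENSMUSG00000028410.13, chr4:40722150-40737149, plus strand) had 535 and 493 counts in NSD1B WT and 3348 and 2830 in NSD1B KO. Scaled, it was 71.2 ± 5.25 and 443 ± 31.5 CPM (SD, n = 2), 6.23-fold higher in NSD1B KO. Its log2 fold change of 2.64 ± 0.09 (SE, edgeR adjusted p = 1.91e-29) was the largest of the members counted in both genotypes. Of its 150-base stretches, 20% are shared with the predicted genes Gm15542, Gm6335 and Gm7816 and with Smu1. Smu1 lies on the opposite strand and shares 608 nt of exon with Dnaja1, and the strand setting of the counts is not given. Smu1 had 888 and 883 counts in NSD1B WT and 1031 and 952 in NSD1B KO, and it was not called at a log2 fold change of 0.22 (adjusted p = 0.0218 from edgeR, below the fold limit).

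Hsph1 (ENSMUSG00000029657.15, chr5:149614287-149636376, minus strand) had 0 counts in both NSD1B WT libraries and 404 and 314 in NSD1B KO, or 51.4 ± 6.70 CPM (SD, n = 2). Taken against 3 counts over both NSD1B WT libraries, 0.208 CPM, it was at least 248-fold higher in NSD1B KO (adjusted p = 5.09e-26 from edgeR). None of its 150-base stretches is shared with another annotated gene, and no other gene overlaps its exons. Of all tested genes, 7.63% had no count in either NSD1B WT library and 11.3% had none in either NSD1B KO library, so such a pattern was not rare here. Summed over the 7 cytosolic members, the level was 1259 and 1266 CPM in NSD1B WT and 2482 and 2249 CPM in NSD1B KO.

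Hspd1 (HSP60), Hspe1 (HSP10) and Hspa9 (mortalin, the HSP70 of the mitochondrial matrix and of protein import) are the mitochondrial members. Hspe1 (ENSMUSG00000073676.4, chr1:55088132-55091307, plus strand) had 665 and 690 counts in NSD1B WT and 1596 and 1468 in NSD1B KO. At 93.7 ± 0.937 and 220 ± 2.53 CPM (SD, n = 2) its groups were far apart, and its log2 fold change was 1.23 ± 0.09 (SE, edgeR adjusted p = 1.22e-17).

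Hspd1 (ENSMUSG00000025980.14, chr1:55077835-55088243, minus strand) moved the other way. It had 363 and 353 counts in NSD1B WT and 145 and 182 in NSD1B KO, or 49.5 ± 1.78 and 23.6 ± 4.88 CPM (SD, n = 2). Both NSD1B KO libraries were below both NSD1B WT libraries, and the log2 fold change was -1.07 ± 0.14 (SE, edgeR adjusted p = 2.63e-09). Hspd1 and Hspe1 share 112 nt of exon on opposite strands at their common promoter, and 18.6% of the 150-base stretches of Hspd1 are shared with the pseudogene Hspd1-ps3, which had at most 4 counts in a library.

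Hspa9 (ENSMUSG00000024359.10, chr18:34937414-34954357, minus strand) was also lower, with 500 and 513 counts in NSD1B WT and 213 and 260 in NSD1B KO. Its level was 70.1 ± 0.144 and 34.1 ± 6.40 CPM (SD, n = 2), with no overlap between the groups. The log2 fold change was -1.04 ± 0.12 (SE, edgeR adjusted p = 8.87e-11).

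**Figure D3:**
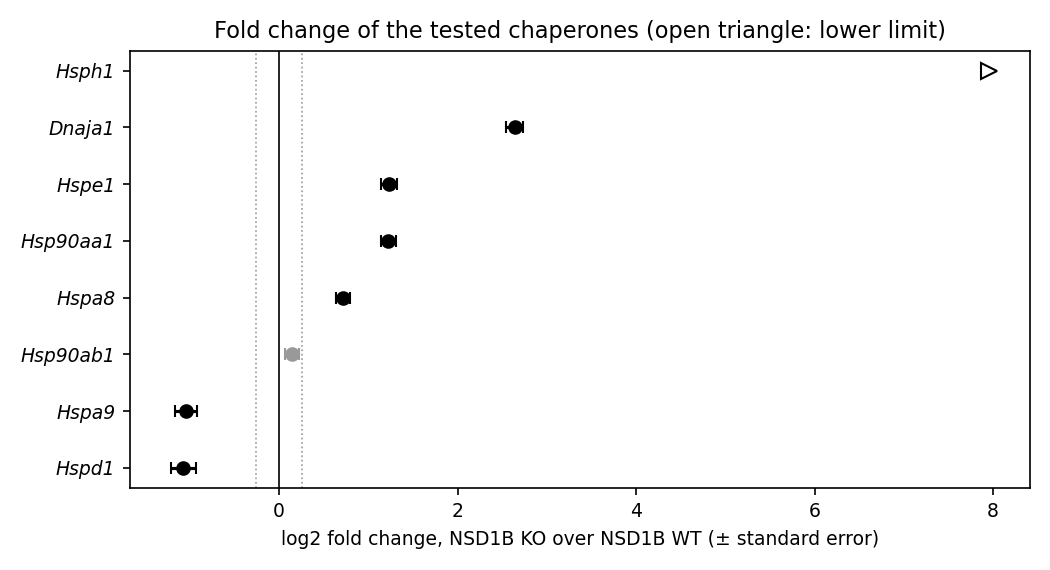
log2 fold change of NSD1B KO over NSD1B WT for the 8 tested members, with standard errors. Black points passed the threshold, the grey point (Hsp90ab1) did not, dotted lines mark a fold change of 1.2, and the open triangle for Hsph1 is a lower limit at 7.95.

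The partners of the mitochondrial folding chamber thus differed in direction. Per kilobase of exon, Hspe1 stood at 3.28 and 3.50 times Hspd1 in the NSD1B WT libraries and at 19.7 and 14.5 times in the NSD1B KO libraries. The ratio of Hspa9 to Hspd1 was 0.844 and 0.891 in NSD1B WT and 0.900 and 0.876 in NSD1B KO, so the NSD1B KO values were close to those of NSD1B WT. Summed over the 3 mitochondrial members, the level was 214 and 213 CPM in NSD1B WT and 272 and 284 CPM in NSD1B KO, carried by Hspe1.

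**Figure D4:**
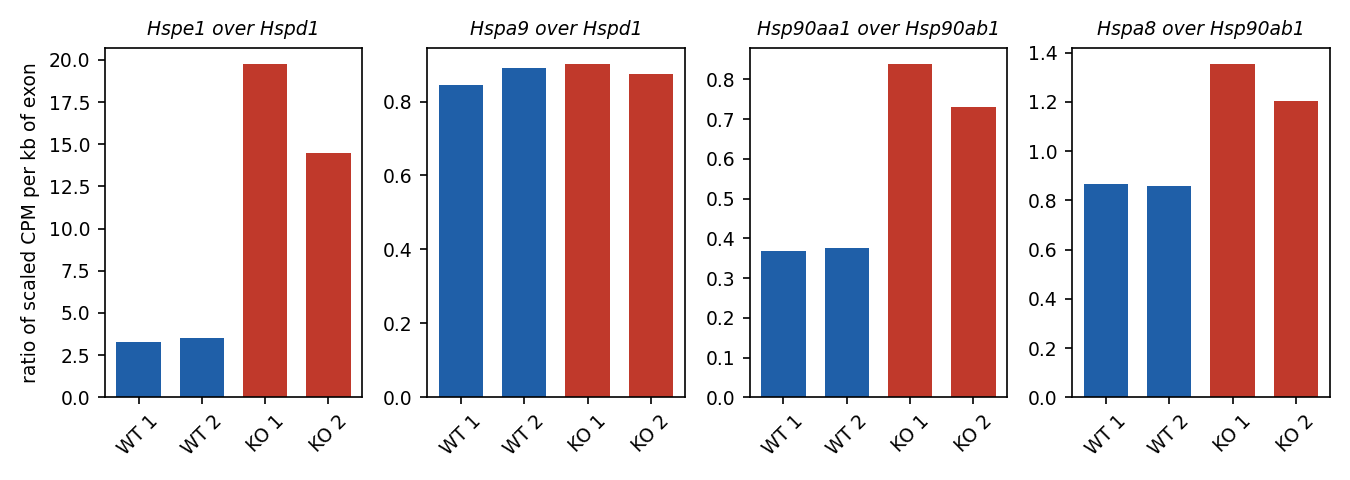
Ratios of 2 members within each library, from TMM-scaled CPM per kilobase of exon, with bars from 0. Hspe1 over Hspd1 is 3.28 and 3.50 in NSD1B WT (blue) and 19.7 and 14.5 in NSD1B KO (red), whereas Hspa9 over Hspd1 lies between 0.844 and 0.900.

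By level per kilobase of exon, Hsp90ab1 stood highest in NSD1B WT at 146 CPM per kilobase, followed by Hspa8 (126), Hspe1 (63.6), Hsp90aa1 (54.2), Hspd1 (18.8), Hspa9 (16.3) and Dnaja1 (8.25). In NSD1B KO Hspa8 stood highest at 207 CPM per kilobase, followed by Hsp90ab1 (162), Hspe1 (149), Hsp90aa1 (127), Dnaja1 (51.3), Hspd1 (8.93), Hspa9 (7.92) and Hsph1 (7.08). The ranges of neighbours did not overlap in NSD1B WT among members with counts. In NSD1B KO those of Hspd1 and Hspa9 and those of Hspa9 and Hsph1 did. With the length of the longest transcript in place of all exons, Hspa9 stood above Hspd1 in NSD1B WT, Hspe1 above Hsp90ab1 in NSD1B KO, and the ranges of Hspa9, Hsph1 and Hspd1 overlapped there. Dnaja1 thus went from the lowest of the members counted in NSD1B WT to the middle of the order in NSD1B KO. These levels are not adjusted for the stretches that Hsp90aa1, Hspa8, Dnaja1 and Hspd1 share with other genes, so the order among neighbours may change with them.

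The genes whose profile over the 4 libraries was most like that of Dnaja1, by Euclidean distance of centred log2 CPM among 923 genes within 1 log2 unit of its level, were Rab5if (distance 0.092), Tgif1 (0.199) and Sla2 (0.222). For Hsph1 they were Rcbtb1 (0.074), Ubxn7 (0.101) and Trmt5 (0.128) among 3696 genes, each with 0 counts in both NSD1B WT libraries. With 4 libraries in 2 groups, such a distance mostly reads the size of the difference between genotypes.

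Around these members, 101 further genes of the chaperone system were examined, of which 77 were tested. Of these, 31 (40.3%) were called higher and 29 (37.7%) lower, close to the shares of all tested genes. Their median log2 fold change was 0.00, against -0.10 for all tested genes. The median of the 8 tested members was 0.97, with Hsph1 at its lower limit. Regardless of direction, the median size of the log2 fold change over all tested genes was 1.16, so that Hspa8, Hspa9 and Hspd1 lay below it, Hsp90aa1 and Hspe1 close to it, and Dnaja1 and Hsph1 above it. Changes of single genes in these lists are log2 fold changes of NSD1B KO over NSD1B WT, and each gene given as higher or lower passed the threshold.

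The other HSP90 proteins and the HSP90 co-chaperones had 11 of 19 tested genes higher and 6 lower, with a median log2 fold change of 0.35. Fkbp4, a peptidyl-prolyl isomerase of steroid receptor complexes, had 15 and 25 counts in NSD1B WT and 250 and 180 in NSD1B KO, a log2 fold change of 3.47 ± 0.25 (SE). Sugt1, which links HSP90 to innate immune receptors and the kinetochore, rose by 1.93 ± 0.09 (SE). On the other side, Trap1, the mitochondrial HSP90, had 462 and 508 counts in NSD1B WT and 57 and 34 in NSD1B KO, at -3.36 ± 0.17 (SE). Ppid, an isomerase that binds HSP90, was at -1.93 ± 0.12 (SE). Stip1, which bridges HSP70 and HSP90, was lower at -0.40 ± 0.10 (SE).

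Among the other HSP70 and HSP110 genes 3 of 7 tested were higher and 4 lower, with a median of -0.63. Hspa5 (BiP, the HSP70 of the endoplasmic reticulum) rose by 1.30 ± 0.09 (SE) and Hspa4, a relative of Hsph1, by 0.46 ± 0.10 (SE), while Hspa14 was at -0.63 ± 0.13 (SE). Changes were larger at lower counts. Hspa2 was higher, with 0 and 3 counts in NSD1B WT and 76 and 59 in NSD1B KO. Hyou1, with 53 and 85 against 0 and 4, and Hspa13, with 27 and 23 against 2 and 2, were lower, as was Hspa4l, given below. Of the other J-domain proteins of types A and B, 4 of 12 were higher and 5 lower, with a median of -0.02. Dnajb1, the main heat-induced partner of HSP70, had 193 and 176 counts in NSD1B WT and 601 and 479 in NSD1B KO, a log2 fold change of 1.60 ± 0.12 (SE), and Dnajb4 was at 1.17 ± 0.11 (SE). Dnaja3, the J-domain partner of Hspa9, was lower at -2.02 ± 0.31 (SE). Dnajb13, a protein of sperm flagella, had 152 and 161 counts in NSD1B WT and 0 in NSD1B KO, at least 100.5-fold lower.

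The nucleotide exchange factors of HSP70 were split, with 3 of 8 tested higher and 3 lower and a median of 0.28. Bag1 had 128 and 119 counts in NSD1B WT and 1195 and 977 in NSD1B KO, a log2 fold change of 3.19 ± 0.12 (SE), and Bag5 rose by 2.17 ± 0.14 (SE). Grpel2, an exchange factor of Hspa9, was lower at -1.79 ± 0.12 (SE). Of 14 genes of the chaperonin TRiC, which folds actin and tubulin, and of its feeder prefoldin, 5 were higher and 4 lower, with a median of 0.02. Cct6a rose by 0.93 ± 0.10 (SE) and Tcp1 by 0.50 ± 0.08 (SE), whereas Cct2 was at -1.16 ± 0.10 (SE) and Pfdn1 at -0.71 ± 0.09 (SE). Of 17 partners and proteases of the mitochondrial chaperones, 3 were higher and 8 lower, with a median of -0.33. The higher genes included Clpx, the unfoldase of a matrix protease, at 1.52 ± 0.14 (SE), and the protease Lonp1, at 0.73 ± 0.23 (SE), and the lower ones Trap1 and Dnaja3.

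**Figure D5:**
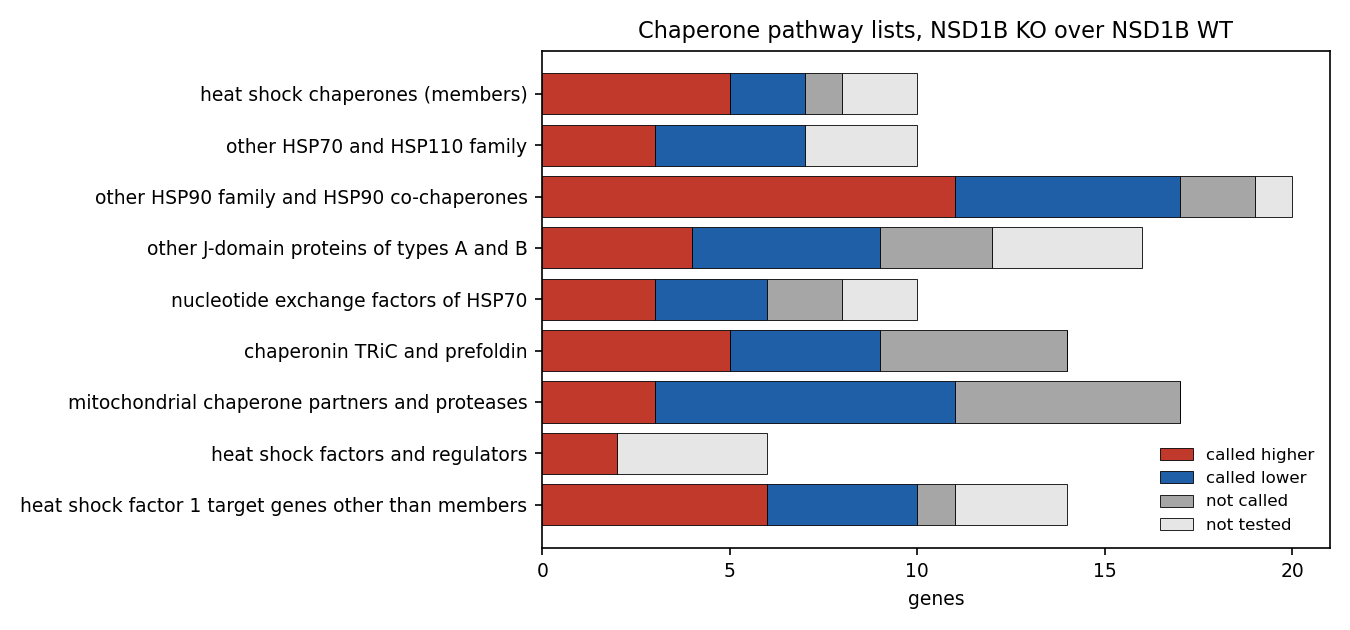
Numbers of genes called higher (red), called lower (blue), not called (grey) and not tested (light grey) in NSD1B KO against NSD1B WT, for the members and 8 lists of the chaperone system; some genes stand in more than 1 list. The members show 5 higher and 2 lower of 8 tested, and the mitochondrial partners 3 higher and 8 lower of 17.

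Hsf1, the gene of heat shock factor 1, had 1 and 3 counts in NSD1B WT and 106 and 78 in NSD1B KO, a log2 fold change of 5.49 ± 0.47 (SE, edgeR adjusted p = 1.34e-14). Hsf2 had 8 and 18 counts in NSD1B WT and 2 and 3 in NSD1B KO and was not tested. Hsbp1, which binds heat shock factor trimers, rose by 0.51 ± 0.08 (SE). Of 14 further targets of heat shock factor 1, 11 were tested, of which 6 were higher and 4 lower, with a median of 0.46. Cacybp, an HSP90-associated protein, rose by 1.82 ± 0.08 (SE), beside Fkbp4, Dnajb1 and Dnajb4 above. The ubiquitin gene Ubb, with 36329 to 52731 counts, was lower at -0.35 ± 0.08 (SE), as was Stip1 above. Hspa4l, an HSP110 gene and the largest change of these targets, had 56 and 54 counts in NSD1B WT and 0 and 2 in NSD1B KO, 53.0-fold higher in NSD1B WT (95% counting interval 14.3 to 443). Bag3, Hspb1 and Serpinh1, also targets of this factor, had 0 counts in all 4 libraries, as had 8 of the 9 small heat shock proteins examined.

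Genes that respond within minutes to handling of tissue were examined because some chaperones respond to it too. Of 15 such genes 10 were tested, 2 higher and 4 lower. The lower genes were Ier2, with 279 and 239 counts in NSD1B WT and 91 and 76 in NSD1B KO (log2 fold change -1.58 ± 0.17, SE), Nr4a1, with 135 and 93 against 0 and 1, Jun, with 28 and 19 against 0 and 0, and Fos, with 56 and 65 against 45 and 28. The higher genes were Dusp1, at 0.48 ± 0.13 (SE), and Junb, at 0.37 ± 0.15 (SE). Egr1 had 0 counts in all libraries. The summed level of the list, 582 to 625 CPM in NSD1B WT and 584 to 596 CPM in NSD1B KO, came mostly from Klf2 and Klf6, which were not called, and so does not show these differences. The part of handling in the differences between the chaperones was not tested.

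Markers of cell types moved with the genotype as well. All 8 B cell markers were counted in every library, 6 of them lower and 0 higher in NSD1B KO, with sums of 12621 to 12850 CPM in NSD1B WT and 11110 to 12102 CPM in NSD1B KO. The 5 erythroid markers tested were all higher, with sums of 35.6 to 39.6 CPM in NSD1B WT and 1690 to 1944 CPM in NSD1B KO. Of 8 myeloid markers 7 were tested, 5 higher and 2 lower, and their sums were 4570 to 4673 and 5735 to 6083 CPM, nearly all from Lyz2. Of 6 markers of plasmacytoid dendritic cells 3 were tested and higher, with sums of 146 to 148 and 295 CPM, and Siglech and Il3ra were at 0. Of 8 T cell markers 3 were tested, 2 higher and 1 lower, with sums of 52.9 to 53.6 and 59.3 to 64.8 CPM and with Cd4, Cd8a and Cd28 at 0. Of 4 NK cell markers 1 was tested and lower, with sums of 2.87 to 3.64 and 0 CPM and with Ncr1, Gzma and Klre1 at 0. Of 6 plasma cell markers 5 were tested, 2 higher and 2 lower, with sums of 301 to 315 and 259 to 268 CPM and Sdc1 at 0. The Y-linked genes Ddx3y, Uty, Kdm5d and Eif2s3y were counted in all 4 libraries and moved in different directions. Kdm5d was higher in NSD1B KO at 2.05 ± 0.16 (SE), Uty at 0.61 ± 0.17 (SE) and Ddx3y at 0.55 ± 0.09 (SE) on the log2 scale, whereas Eif2s3y was lower at -2.45 ± 0.11 (SE). Xist had 47 and 62 counts in NSD1B WT and 1 and 2 in NSD1B KO. The part of these cells in the differences between the chaperones was not tested.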

How the data were processed

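For each of 4 libraries the authors deposited raw counts, as whole numbers, of reads per gene. The Methods describe paired-end reads mapped to mm10 with Bowtie2 and an FPKM calculation with Cufflinks. FPKM values were not used here. How reads were counted (program, strand, annotation) is not given in the sources used here. Reads on no gene (44.3% to 44.6% of counted reads) stayed out of library sizes. Positions and exon lengths came from GENCODE M21 (mm10), promoter windows from RefSeq (GRCm38.p6).

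NSD1B KO was compared with NSD1B WT by the quasi-likelihood test of edgeR 4.0.16 in R 4.3.3, after TMM scaling and filterByExpr (minimum count 10, minimum total 15). P-values were adjusted by the Benjamini-Hochberg method over 11657 genes. The threshold follows the Methods, with p taken as adjusted. A standard error is the absolute log2 fold change over the root of the test statistic. The coefficient of variation between libraries was 0.0735. A fold against a genotype at 0 used 3 counts over that genotype as a floor. Floors and the counting interval of a low-count ratio cover counting error only, while the interval of a fitted log2 fold change includes the fitted spread between libraries.

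Members were taken by symbol. From each list of the chaperone system the 2 largest increases and 2 largest decreases were named, taken from called genes whose average log2 CPM reached 3, and so were Hsf1 and Hsf2. Likeness was computed for the 2 members with the largest change at such a level. Hspa1l, Hspa2, Hspa4l, Hspa13, Hyou1, Smu1, the early response genes, Bag3, Hspb1, Serpinh1 and the markers named were chosen after their values were seen. Members and lists were chosen with earlier results of these data known. Alternatives used DESeq2 1.42.0, limma 3.58.1 (voom), other scalings, filters and thresholds, each library left out, the replicate number as a block, a length and GC trend (loess, span 0.5), and summed copies. The procedure was tested on simulated data in which far fewer genes changed than were called here. That test therefore does not show how the scaling does when most genes differ. 1 erythroid marker and 1 gene of the pathway lists are not reported here.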

Additional observations from a re-analysis of the deposited data

How the results depend on the processing

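All 8 tested members kept their direction in every alternative that could be fitted, and 133 of 135 values for single members kept their side of the threshold. Both exceptions were Hsp90ab1, called at 0.33 with the length and GC trend removed, alone and together with the replicate block. With each library left out in turn, 5 members were called higher and 2 lower throughout. Then Hspd1 lay between -1.29 and -0.88, Hspa9 between -1.24 and -0.86, Dnaja1 between 2.56 and 2.75 and the lower limit of Hsph1 between 6.96 and 8.09 on the log2 scale. These fits leave a genotype with 1 library, which is assumed to vary like the other. Requiring 1 CPM in all 4 libraries removes Hsph1 from the test and left 5846 genes called in place of 9119, 2855 higher and 2991 lower, on 8334 genes. Under limits of 1e-05 on the adjusted p and 0.5 on the size of the log2 fold change, 38 of the 60 called genes of the pathway lists passed. Samples with the same replicate number did not deviate together (correlation 0.065 across genes, which are not independent). Whether they share more than a number is not stated in the labels, and this value cannot show it. The fit with the replicate block called 8960 genes and the same numbers of members, 5 higher and 2 lower. Counts of predicted genes that share 150-base stretches with a member were added to it in an alternative chosen after seeing the data, which changed no call of a member. The median log2 fold change of all tested genes was -0.18 when scaled by library size alone, and 0.02 once the trend in length and GC was taken out.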
